A study of Mus musculus with 6 samples.

Results

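The genes described here belong to the 2 routes by which cells show peptides to T cells on MHC molecules. They were compared in livers of DeltaHepKlf6 mice and of Control littermates. The class II group was given as Cd74, H2-Aa, H2-Ab1, H2-DMa and Ciita, and the class I group as B2m, Tap1, Tap2, Tapbp and Psmb8. A gene entered through a probe set, a group of short array probes that together report a transcript, when the platform annotation named that gene alone, and the brightest such probe set by mean of the 6 arrays stood for it. This found 9 of the 10 genes, out of 14860 genes measured in this way and 23332 probe sets in all. Each of the 9 had 1 such probe set. Ciita had none, because its probe set is annotated to Ciita and a second locus together. The class II set therefore held 4 genes and the class I set 5. The class II genes had been picked in part because their values were lower in DeltaHepKlf6, so their difference between the groups is a description, and no test of it is given.

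The arrays measured total RNA of whole liver, 1 Affymetrix exon array per mouse, on the log2 scale. The DeltaHepKlf6 group was 3 mice with a knockdown of Klf6, a zinc finger transcription factor, restricted to hepatocytes, and the labels, which also call these animals knockout, describe improved glucose tolerance and less steatosis. The Control group was 3 littermates labelled wild type, with glucose intolerance and marked steatosis. All 6 mice had eaten a high-fat diet for 8 weeks, and the strain, the age and the driver of the knockdown are not given in the sources used here. The labels name separate mice, so the spread within a group is between mice.

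MHC class II molecules carry peptides from proteins taken up and digested in endosomes and show them to CD4 T cells. In the liver they are known mainly from dendritic cells, B cells, macrophages including Kupffer cells, and sinusoidal endothelium, and hepatocytes carry little of them at rest. Class I molecules carry peptides from proteins made inside the cell, cut by the proteasome and pumped into the endoplasmic reticulum, and nearly all nucleated cells, hepatocytes included, have them. CIITA is the coactivator that class II genes depend on, and interferon gamma raises both routes.

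Klf6 itself, the targeted gene, had values of 5.93, 5.43 and 5.45 in the 3 DeltaHepKlf6 livers, against 6.80, 6.09 and 5.88 in the 3 Control livers, and the groups overlapped. Its difference of -0.65 ± 0.28 (SE) did not pass the test (limma, Benjamini-Hochberg adjusted p = 0.998). Array medians lay between 5.49 and 5.55. Upper quartiles were 7.19, 7.25 and 6.92 in DeltaHepKlf6 1, 2 and 3, against 7.35, 7.16 and 7.10 in Control 1, 2 and 3, so DeltaHepKlf6 3 had the narrowest spread of signal. The liver label was met by its markers: Alb, the main plasma protein of hepatocytes, read 12.83 to 13.04 in DeltaHepKlf6 and 12.85 to 13.00 in Control. No probe set passed limma's test after Benjamini-Hochberg adjustment at 0.05, that is 0 of 23332 (0%), while 750 had an unadjusted p under 0.05 (3.21%).

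All 4 measured class II genes had lower means in DeltaHepKlf6 livers, by 0.56 to 1.14 on the log2 scale. In 3 of them the groups did not overlap. Among all 14860 genes 62.1% had a lower and 37.2% a higher mean, while 3.9% were lower and 2.42% higher without overlap. Since the genes were picked on this contrast, nothing is read from their count. Whole liver was measured, so fewer cells of a type and less RNA per cell cannot be told apart.

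Cd74, the invariant chain that fills the groove of new class II molecules and guides them to endosomes, read 6.19, 6.62 and 5.84 in DeltaHepKlf6 1, 2 and 3, against 7.40, 7.47 and 7.10 in Control 1, 2 and 3. The highest DeltaHepKlf6 liver lay 0.48 below the lowest Control liver, the widest gap of the 4 genes. The means were 6.22 ± 0.39 in DeltaHepKlf6 and 7.32 ± 0.20 in Control (SD, n = 3 each), a difference of -1.11 ± 0.23 (SE), or 0.464 of the Control signal.

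H2-Aa and H2-Ab1 encode the alpha and beta chains of the class II molecule I-A. H2-Aa read 7.51, 8.04 and 7.06 in DeltaHepKlf6 1, 2 and 3, against 8.48, 9.15 and 8.41 in Control 1, 2 and 3, again with no overlap. Its means were 7.54 ± 0.49 in DeltaHepKlf6 and 8.68 ± 0.41 in Control (SD, n = 3 each), which differ by -1.14 ± 0.32 (SE), the largest difference among the 9 genes and 0.453 of the Control signal. H2-Ab1 read 7.22, 7.81 and 6.93 in DeltaHepKlf6 1, 2 and 3, against 7.94, 8.62 and 7.59 in Control 1, 2 and 3. Here the groups overlapped, because DeltaHepKlf6 2 lay above Control 3. H2-Ab1 differed by -0.73 ± 0.34 (SE), and by -0.445 without Control 2.

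H2-DMa encodes a chain of the H2-DM molecule, which edits the peptides bound to class II. It was dimmer, with 4.53, 4.94 and 4.74 in DeltaHepKlf6 1, 2 and 3, against 5.34, 5.46 and 5.08 in Control 1, 2 and 3. No DeltaHepKlf6 liver reached the lowest Control liver, and the difference was -0.56 ± 0.17 (SE). The probe set annotated to Ciita and EG669998 together, left out of the set, read 4.55, 4.59 and 4.73 in DeltaHepKlf6 and 4.55, 4.72 and 4.56 in Control. The groups overlapped fully at this dim level, which cannot be assigned to Ciita alone.

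**Figure D1:**
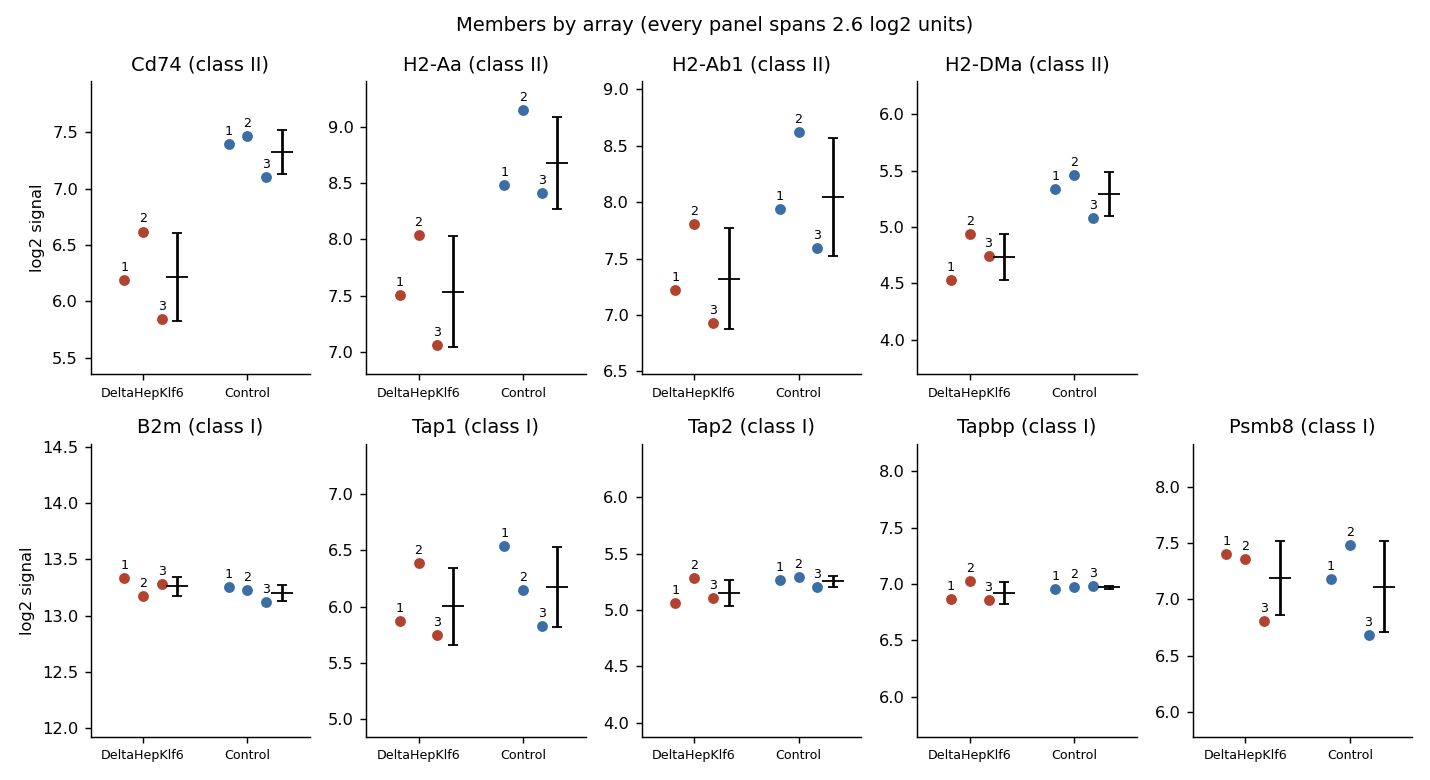
Log2 signal of the 9 measured genes in each array, with DeltaHepKlf6 left of Control; numbers mark the mice and the black bar is the mean ± SD (n = 3). Vertical axes differ in position but span the same range, and Cd74, H2-Aa and H2-DMa show no overlap between the groups while all 5 class I genes do.

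Of the class I genes, 3 had a lower and 2 a higher mean in DeltaHepKlf6, the differences ran from -0.17 to 0.08, and the groups overlapped in all 5. B2m, the light chain of every class I molecule, read 13.33, 13.17 and 13.28 in DeltaHepKlf6 1, 2 and 3, against 13.25, 13.23 and 13.12 in Control 1, 2 and 3. The ranges crossed, with DeltaHepKlf6 2 below Control 1 and Control 2. B2m differed by 0.06, with a 95% confidence interval of -0.25 to 0.37.

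Tap1 and Tap2 form the pump that moves peptides into the endoplasmic reticulum. Tap1 read 5.87, 6.39 and 5.75 in DeltaHepKlf6 1, 2 and 3, against 6.54, 6.15 and 5.83 in Control 1, 2 and 3. The 2 groups were interleaved, and the difference was -0.17 (95% confidence interval -0.79 to 0.45). Tap2 read 5.06, 5.28 and 5.11 in DeltaHepKlf6, against 5.27, 5.29 and 5.20 in Control, and differed by -0.10 (95% confidence interval -0.42 to 0.21).

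Tapbp, tapasin, holds empty class I molecules at the pump. It read 6.87, 7.03 and 6.86 in DeltaHepKlf6, against 6.96, 6.97 and 6.98 in Control, so that DeltaHepKlf6 2 was the highest of the 6 livers. Psmb8, a catalytic subunit of the immunoproteasome, read 7.40, 7.36 and 6.81 in DeltaHepKlf6 1, 2 and 3, against 7.18, 7.48 and 6.68 in Control 1, 2 and 3. DeltaHepKlf6 3 and Control 3 were the lowest of their groups, the ranges overlapped, and the group means lay 0.08 apart (95% confidence interval -0.57 to 0.72). None of the 5 class I genes was called (limma, Benjamini-Hochberg adjusted p = 0.998 for each).

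Averaged within each array, the class II set had means of 6.36, 6.85 and 6.14 in DeltaHepKlf6 1, 2 and 3, against 7.29, 7.68 and 7.05 in Control 1, 2 and 3. The groups were 0.19 apart at their nearest, and the difference of the group means was -0.88. The class I set had means of 7.71, 7.85 and 7.56 in DeltaHepKlf6 1, 2 and 3, against 7.84, 7.82 and 7.56 in Control 1, 2 and 3, with a difference of -0.04 and full overlap.

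The class II mean minus the class I mean of the same array was -1.34, -0.99 and -1.42 in DeltaHepKlf6 1, 2 and 3, against -0.55, -0.15 and -0.52 in Control 1, 2 and 3. Its level carries no meaning, since probe sets differ in brightness, but the arrays can be compared. Every DeltaHepKlf6 array lay at least 0.44 below every Control array, and the spread within groups, 0.23 in DeltaHepKlf6 and 0.22 in Control (SD, n = 3 each), was smaller than for the class II set alone, 0.36 in DeltaHepKlf6 and 0.32 in Control. The difference of the group means was -0.85. With all measured genes of both listed pathways in place of the members it was -0.23. Of the 20 pairs of 1 class II and 1 class I gene, the log2 ratio of class II to class I was lower in DeltaHepKlf6 in 20, by 0.39 to 1.22 in size, and without overlap in 15. These ratios share the chosen class II genes and are no further evidence of direction.

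**Figure D2:**
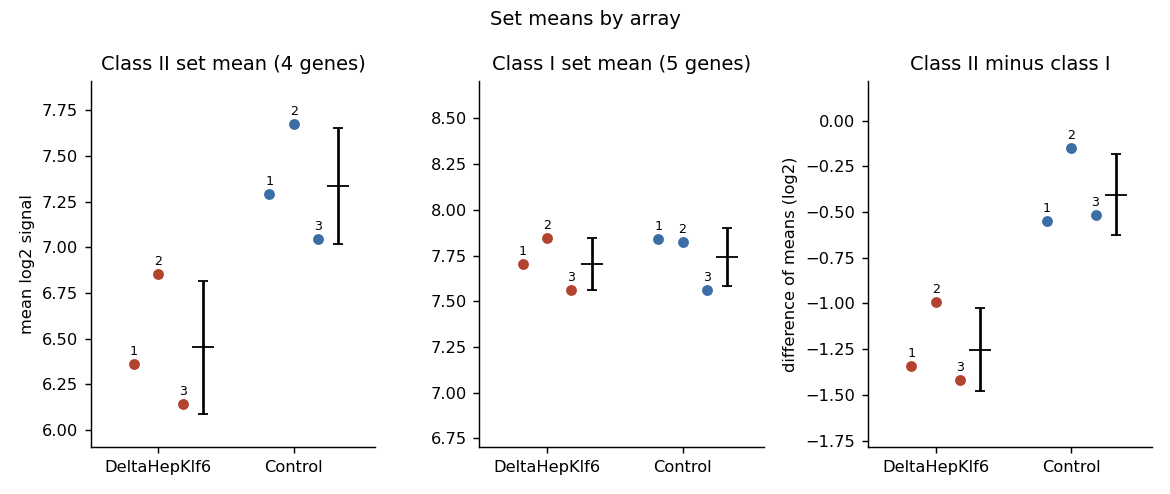
Mean log2 signal of the class II set (4 genes), of the class I set (5 genes) and the class II minus class I difference in each array, DeltaHepKlf6 left of Control, with mean ± SD (n = 3) in black. The class I means overlap, and the differences in DeltaHepKlf6 arrays, -1.42 to -0.99, lie below those in Control arrays, -0.55 to -0.15.

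Within the groups the class II genes varied together. DeltaHepKlf6 2 and Control 2 were each the highest of their group in Cd74, H2-Aa, H2-Ab1 and H2-DMa. After subtracting each group's mean, each class II gene correlated with the mean of the other class II genes with a Pearson r of 0.72 to 0.97 over 6 arrays, H2-Ab1 highest and H2-DMa lowest. Tap1, Tap2, Tapbp and Psmb8 correlated with the class II set in the same way with r of 0.67 to 0.83, and B2m with -0.17. The class I set mean correlated with the class II set mean with r = 0.87, so varying together was not particular to the class II genes. The arrays share their processing and differ in signal spread, so these coefficients are descriptions, given without a test. The single-gene probe sets most like the class II set by this measure, among 5312 that were bright and variable enough, were Enpep with r = 0.999, Tmem30b with 0.993, Btbd1 with 0.991, Taf12 with 0.989 and Gas2 with 0.987. For the class I set they were Kdm5b, Fkbp2, Lta4h, Zfp622 and Pcgf1, with r from 0.998 to 0.999 over 6 arrays, among 7213 compared.

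Both routes are encoded side by side in the MHC on chromosome 17, apart from Cd74 on 18, Ciita on 16 and B2m on 2. In the gene order of the RefSeq table, H2-Oa is followed by Brd2, H2-DMa, H2-DMb2, H2-DMb1, Psmb9, Tap1, Psmb8, Tap2, H2-Ob, H2-Ab1, H2-Aa and H2-Eb1. The 4 class I processing genes thus lie between the H2-DM genes and the I-A genes. Psmb9, another immunoproteasome subunit and no member of the set, read 7.30, 8.28 and 6.89 in DeltaHepKlf6 1, 2 and 3, against 7.82, 7.70 and 7.61 in Control 1, 2 and 3. It differed by -0.22 ± 0.35 (SE), with DeltaHepKlf6 2 above every Control liver. The differences along this stretch were -0.31 for H2-Oa, -0.24 for Brd2, -0.56 for H2-DMa, -0.26 for the probe set of H2-DMb2 and H2-DMb1, between -0.22 and 0.08 for Psmb9, Tap1, Psmb8 and Tap2, and -0.73 and -1.14 for H2-Ab1 and H2-Aa. Psmb9 at -0.22 thus lay close to the H2-DMb probe set beside it, and H2-Ob had no probe set.

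The last gene of the stretch, H2-Eb1, the beta chain of I-E, shares its probe set with H2-Eb2 and is no member of the set. That probe set was named after its values were seen, so its difference is a description. It read 7.92, 7.94 and 7.06 in DeltaHepKlf6 1, 2 and 3. In Control 1, 2 and 3 it read 8.39, 9.24 and 8.15, and the groups did not overlap. Of all genes 3.9% were lower without overlap. The H2-Eb1 probe set differed by -0.95 ± 0.37 (SE) and did not pass the test (limma, Benjamini-Hochberg adjusted p = 0.998). The probe set shared by H2-DMb1 and H2-DMb2, the partners of H2-DMa, read 5.77, 5.90 and 5.85 in DeltaHepKlf6, against 6.45, 6.16 and 5.70 in Control, and here the groups overlapped. H2-Oa, a chain of H2-DO, which restrains H2-DM, differed by -0.31 ± 0.28 (SE), and H2-Ea, the alpha chain of I-E, by 0.42 ± 0.25 (SE) at a dim level of 3.20 to 4.26.

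**Figure D3:**
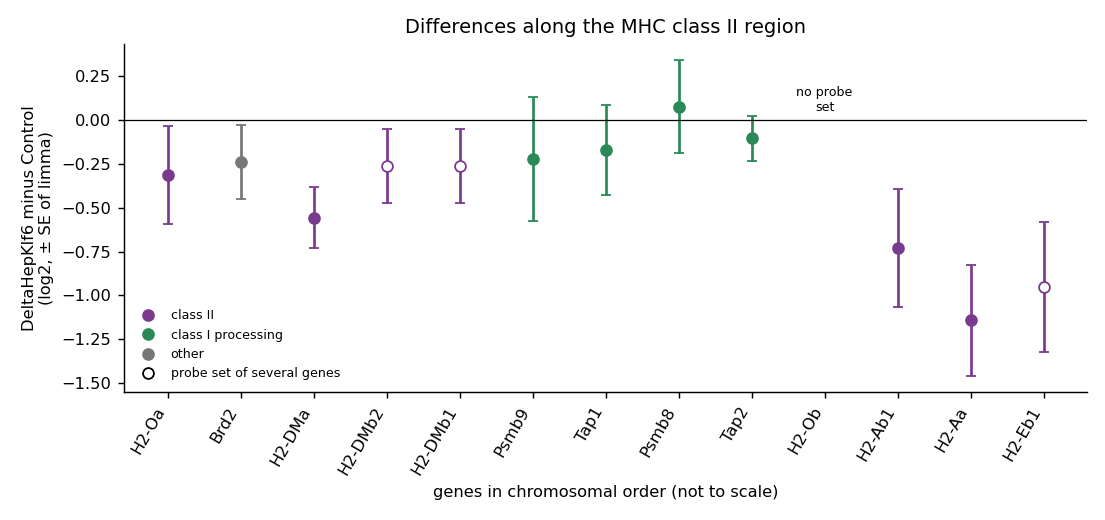
Log2 difference, DeltaHepKlf6 minus Control, ± SE of the limma fit for genes in chromosomal order along the class II region of the MHC; open circles are probe sets annotated to several genes, and H2-DMb2 and H2-DMb1 are the same probe set. Psmb9, Tap1, Psmb8 and Tap2 lie between -0.22 and 0.08, next to the shared H2-DMb2 and H2-DMb1 probe set at -0.26 on 1 side and, past the unmeasured H2-Ob, H2-Ab1 at -0.73 on the other.

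Class II promoters are known for an X box, bound by RFX proteins, followed by a Y box, bound by NF-Y, through which CIITA acts. Several class I promoters hold an interferon-stimulated response element. Promoter windows of 300 bases, from 250 before to 50 after a start, were matched in the RefSeq set of build GRCm38.p6 for 6 of the 10 listed genes. The windows of H2-Aa and H2-Eb1 are shown for the paired boxes, that of B2m for the response element, and that of Tap1 as a class I gene among the class II genes. Capitals mark ATTGG, the Y box core, on either strand (CCAAT on the other), GCAAC, an X box core, where ATTGG follows on the same strand with starts 20 to 45 bases apart, and GAAA followed by any 2 bases and GAAA again, the response element core. The windows read 5′ to 3′ on the gene's strand, at chr17:34287774-34288073 (-) for H2-Aa, chr17:34305617-34305916 (+) for H2-Eb1, chr2:122147437-122147736 (+) for B2m and chr17:34187306-34187605 (+) for Tap1.
H2-Aa: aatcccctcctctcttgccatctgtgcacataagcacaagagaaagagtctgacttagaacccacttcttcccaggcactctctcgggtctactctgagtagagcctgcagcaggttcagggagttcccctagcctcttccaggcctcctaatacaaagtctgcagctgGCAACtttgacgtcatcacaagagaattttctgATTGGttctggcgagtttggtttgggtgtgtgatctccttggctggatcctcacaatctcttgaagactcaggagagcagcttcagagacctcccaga
H2-Eb1: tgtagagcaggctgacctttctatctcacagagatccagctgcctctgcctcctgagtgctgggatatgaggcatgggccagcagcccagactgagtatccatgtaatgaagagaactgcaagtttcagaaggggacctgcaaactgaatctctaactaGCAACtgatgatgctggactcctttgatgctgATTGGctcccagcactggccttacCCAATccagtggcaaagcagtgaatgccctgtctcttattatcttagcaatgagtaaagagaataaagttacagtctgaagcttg
B2m: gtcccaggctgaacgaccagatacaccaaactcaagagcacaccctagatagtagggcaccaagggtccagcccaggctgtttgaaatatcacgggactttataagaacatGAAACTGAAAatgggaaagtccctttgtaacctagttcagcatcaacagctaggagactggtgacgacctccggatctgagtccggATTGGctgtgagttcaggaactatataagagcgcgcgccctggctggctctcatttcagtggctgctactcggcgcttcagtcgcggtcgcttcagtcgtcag
Tap1: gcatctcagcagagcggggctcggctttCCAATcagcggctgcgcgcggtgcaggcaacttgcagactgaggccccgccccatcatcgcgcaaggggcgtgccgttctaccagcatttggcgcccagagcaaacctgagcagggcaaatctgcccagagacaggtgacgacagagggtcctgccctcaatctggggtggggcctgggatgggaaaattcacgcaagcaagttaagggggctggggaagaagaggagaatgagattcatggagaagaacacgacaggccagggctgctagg

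The arrangement of GCAAC and then ATTGG was found in H2-Aa, with starts 33 bases apart, and in H2-Eb1, with starts 32 apart. Of all 32851 windows 1.24% hold it, searched on both strands. It was not found in the windows of H2-DMa, B2m, Tap1, Tapbp, Psmb8, Psmb9 or H2-DMb1. ATTGG alone is common, in 37.4% of windows, and H2-Aa, H2-Eb1, H2-DMb1, B2m, Tap1, Tapbp, Psmb9 and the second start of H2-DMa hold it on 1 strand or the other. The response element core was found in B2m and is held by 3.44% of windows. The motifs share no bases in the 4 windows printed. These are exact matches of letters and not measured sites. A box spelled with other letters was not searched for, so a window without a match may still hold one.

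Beyond the members, 19 of 24 other listed class II pathway genes had a single-gene probe set. Their mean was lower in DeltaHepKlf6 in 18 and higher in 1, H2-Ea, which was dim at 3.20 to 4.26. Over all 14860 genes 62.1% were lower with a median of -0.05, while the median difference of the 19 was -0.22. None of the 19 passed limma's test, and 1 of 19 was lower without overlap, against 3.9% of all genes. Without DeltaHepKlf6 3 the median was -0.09 and without Control 1 it was -0.12. Enzymes that prepare class II peptides in endosomes were among them. Ifi30, a thiol reductase of lysosomes, differed by -0.46 ± 0.36 (SE), the protease genes Ctsb by -0.36 ± 0.21 and Ctss, known for trimming the invariant chain, by -0.22 ± 0.17 (SE). March1, a ubiquitin ligase that takes class II off the surface, read 4.42, 4.45 and 4.29 in DeltaHepKlf6, against 4.70, 4.55 and 4.65 in Control, the gene without overlap, and differed by -0.25 ± 0.13 (SE).

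Genes of the proteins that bind class II promoters were also measured, and none was called. Rfx5, a subunit of the RFX complex, differed by -0.07 ± 0.13 (SE), Rfxap by -0.25 ± 0.15 and Rfxank by -0.21 ± 0.20 (SE). Nfya and Nfyb, subunits of NF-Y, differed by -0.22 ± 0.20 and -0.17 ± 0.17 (SE), and the third subunit, Nfyc, by -0.52 ± 0.77 (SE), with an array spread from 2.73 to 5.22. Cd86, Cd80 and Cd40, costimulatory proteins of antigen-presenting cells, differed by -0.17, -0.24 and -0.02, and their groups overlapped.

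Of 28 other listed class I pathway genes 12 had a single-gene probe set, with 10 lower, 2 higher, a median of -0.13 and none called by limma. Over all 14860 genes 62.1% were lower, the median was -0.05, and none was called. Without DeltaHepKlf6 3 the median of the list was 0.01 and that of all genes -0.003. Psmb10, a further immunoproteasome subunit, differed by -0.19 ± 0.25 (SE) and Psme1, of the proteasome activator, by -0.25 ± 0.17. H2-Q10, a class I molecule secreted by hepatocytes, read 10.86, 10.90 and 10.89 in DeltaHepKlf6, against 11.11, 10.93 and 10.83 in Control, a spread in DeltaHepKlf6 of 0.02 (SD, n = 3). Classical heavy chains share probe sets. The set annotated to H2-K1, H2-K2 and H2-D1 read 9.76, 10.11 and 9.06 in DeltaHepKlf6, against 9.84, 9.94 and 9.61 in Control. A brighter set that names H2-D1, H2-K1 and 5 other loci read 9.81, 10.54 and 9.45 in DeltaHepKlf6, against 10.69, 10.37 and 10.43 in Control, and differed by -0.56 ± 0.29 (SE), as much as H2-DMa. The first differed by -0.15 ± 0.28 (SE). Both overlapped between the groups.

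The interferon gamma axis was read from 16 of 20 listed genes, of which 13 were lower and 3 higher in DeltaHepKlf6 with a median of -0.09, and none was called. Ifng read 5.26 to 5.48 in DeltaHepKlf6 and 5.28 to 5.56 in Control. Irf1, a factor induced by interferon gamma, differed by -0.32 ± 0.22 (SE), and Cxcl9, a chemokine that interferon gamma induces, by -0.09 ± 0.41. Cxcl10, a related chemokine, read 6.73, 6.75 and 6.25 in DeltaHepKlf6, against 8.13, 7.41 and 6.62 in Control, overlapped and differed by -0.81 ± 0.39 (SE). Gbp2, Jak1 and Ifngr1 differed by -0.32, -0.18 and -0.15. Irf2, a relative of Irf1, read 9.41, 9.49 and 9.04 in DeltaHepKlf6, against 9.85, 9.77 and 9.54 in Control, and differed by -0.41 ± 0.18 (SE, limma adjusted p = 0.998). It was the 1 of 16 lower without overlap, where 3.9% of all genes were, and 62.1% of all genes were lower. The list's median was -0.03 without DeltaHepKlf6 3 and -0.22 without Control 3.

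**Figure D4:**
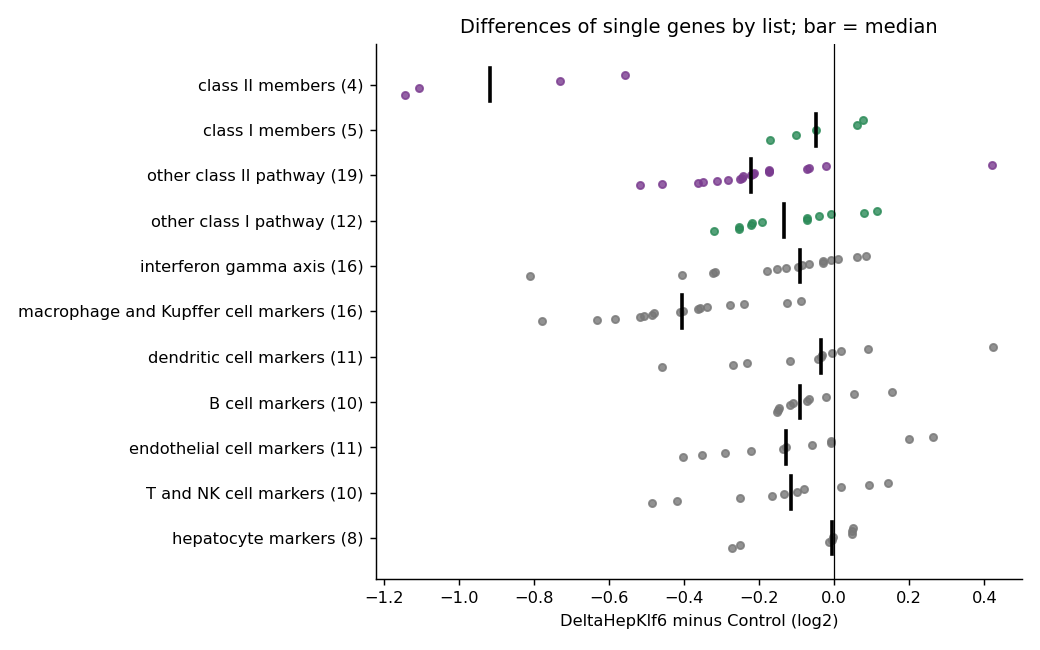
Log2 differences, DeltaHepKlf6 minus Control, of single genes (points) in each list, with the number measured in parentheses and the median as a black bar. The class II members, picked in part for low values, lie between -1.14 and -0.56, and the macrophage and Kupffer cell markers between -0.78 and -0.09.

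Markers of the cell types that carry class II were read in the same arrays. All 16 measured genes of the macrophage and Kupffer cell list had lower means in DeltaHepKlf6, the median being -0.41, and 4 did not overlap, while over all genes 62.1% were lower and 3.9% lower without overlap. Limma called none. The 4 were Clec4f and Timd4, surface receptors of Kupffer cells, Cd5l, a secreted macrophage protein, and Cd163, the haemoglobin scavenger receptor, which differed by -0.78, -0.48, -0.49 and -0.51. Adgre1, a surface marker of mouse macrophages, differed by -0.63 ± 0.34 (SE) and C1qc, of complement C1q, by -0.36 ± 0.21, with overlap. The mean of the 16 markers per array was 7.04, 7.16 and 6.48 in DeltaHepKlf6 1, 2 and 3. In Control 1, 2 and 3 this mean was 7.50, 7.30 and 7.11, so DeltaHepKlf6 2 lay above Control 3. Without DeltaHepKlf6 3, the array with the narrowest spread of signal, 15 of the 16 were lower and the median was -0.25. The difference of the list means was then -0.21, against -0.41 with all arrays. Over all genes 7534 of 14860 were lower without that array, with a median of -0.003. The class II mean minus this macrophage mean was -0.68, -0.30 and -0.34 in DeltaHepKlf6, against -0.21, 0.37 and -0.07 in Control. The class II set was lower in DeltaHepKlf6 by 0.47 more than the macrophage markers, and by 0.30 more without Control 2. With all arrays the groups were 0.10 apart at their nearest. Since the class II genes were picked in part for lower values in this contrast, nothing is read from this excess. The part of these cells in the class II values was not tested.

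**Figure D5:**
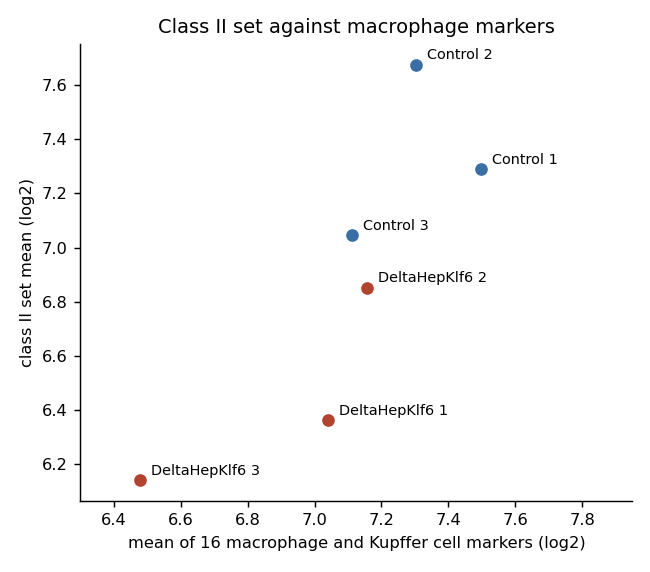
Class II set mean against the mean of 16 macrophage and Kupffer cell markers, both log2, in each array. DeltaHepKlf6 2 and Control 3 have similar marker means of 7.16 and 7.11, with class II means of 6.85 and 7.05.

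Of 11 dendritic cell markers 8 had lower means, the median was -0.04, and their mean per array was 6.18 to 6.32 in DeltaHepKlf6 and 6.20 to 6.46 in Control. Flt3 and Zbtb46, which define classical dendritic cells, differed by -0.04 and -0.01, and Bst2, Xcr1 and Clec9a by -0.46, -0.27 and 0.42. Flt3 and Zbtb46 were dim, with means of 4.61 and 5.29 over the 6 arrays, where array medians were 5.49 to 5.55. The list mean also holds Kmo and Dpp4, far brighter at 11.49 and 9.92. Of 10 B cell markers 8 had lower means, the median was -0.09, and their mean per array was 4.19 to 4.43 in DeltaHepKlf6 and 4.31 to 4.46 in Control. Blk, a kinase of B cells, was higher by 0.15, the 1 of 10 higher without overlap, beside 2.42% of all genes, and 62.1% of all genes were lower. Pax5 and Cd79b differed by -0.15 each. Ms4a1, which encodes CD20, read 2.62 to 3.16 in DeltaHepKlf6 and 2.75 to 3.13 in Control, below the lower quartile of every array, 4.06 to 4.16. Arrays give no true zero, so an absent transcript and a dim one cannot be told apart.

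Of 11 endothelial markers 9 had lower means, the median was -0.13, and their mean per array was 7.47 to 7.83 in DeltaHepKlf6 and 7.71 to 7.90 in Control. Pecam1, a junction protein, differed by -0.35 and was the 1 of 11 lower without overlap, beside 3.9% of all genes, and Lyve1, of sinusoidal endothelium, differed by -0.40. Stab2 and Kdr were the 2 endothelial markers with higher means, by 0.26 and 0.20, with overlap. Of 10 markers of T and NK cells 7 had lower means, the median was -0.12, and their mean was 4.39 to 4.63 in DeltaHepKlf6 and 4.54 to 4.83 in Control. Cd3e, of the T cell receptor complex, and Cd2 differed by -0.49 and -0.42, the 2 of 10 without overlap, beside 62.1% of all genes lower and 3.9% lower without overlap. Cd3d, of the same complex, Ncr1 and Gzmb were the 3 with higher means, by 0.14, 0.09 and 0.02, with overlap. Of 8 hepatocyte markers 5 had lower means and the median was -0.005. Hnf4a and Asgr1 differed by -0.25 and -0.27, and Ttr by 0.05. Without 1 array the median changed sign for the dendritic cell list (0.0067 without DeltaHepKlf6 2) and for the B cell list (0.023 without DeltaHepKlf6 1). The hepatocyte median changed sign too, to 0.014 without DeltaHepKlf6 2 and 0.0025 without DeltaHepKlf6 3. Without Control 1 it was 0.028 and without Control 2 it was 0.005. The median was -0.04 for endothelium without DeltaHepKlf6 3 and -0.04 for T and NK cells without Control 2. None of these genes passed limma's test, and the part of these cells in the class II values was not tested.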

How the data were processed

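Liver RNA of 3 DeltaHepKlf6 and 3 Control mice was measured, 1 exon array each, and grouped by sample title. The authors deposited log2 values for 23332 probe sets, rounded to 2 decimals, from 0.65 to 14.35. Tools named in the submitters' processing notes are RMA, limma and Affymetrix Expression Console, with no version or role for any. RMA compresses differences of dim genes. No genome build for these probe sets was given in the sources used here. Platform annotation named 1 gene for 14996 probe sets, several for 1019 and none for 7317. RefSeq matched 14941 of the single-gene sets and changed 0 symbols.

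All probe sets were fitted by lmFit and eBayes in limma 3.58.1 (R 4.3.3), DeltaHepKlf6 minus Control, with no covariate or filter, adjusted by Benjamini-Hochberg and called at an adjusted p under 0.05. The fit was tested on simulated data with independent noise and known added differences, to check its estimates. Nothing about the calls in these data is drawn from that test. Set means are plain means per array. Tables were made in pandas 2.3.3 and plots in matplotlib 3.10.9 under Python 3.11.15. The number of arrays limits precision. Members and lists were chosen with earlier results of these data known. Named genes were the members, Klf6, listed pathway chains and regulators, up to 6 genes per other list by unadjusted p, and the 5 most similar genes per set. Other genes of the lists, the shared probe sets, Alb, Ms4a1, Flt3, Zbtb46, Ifng and Cxcl9 were named after their values were seen, for their known roles. Alternatives were quantile normalization, equal medians, array weights, an intensity trend, dim filters, the replicate block, leaving out arrays or members, and the full pathway lists.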

Additional observations from a re-analysis of the deposited data

How the results depend on the processing

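With all listed pathway genes in place of the members, the class II difference was -0.33 and the class II minus class I difference -0.23. Minus the macrophage and Kupffer cell markers, an alternative added after seeing the data, the class II difference was -0.47. Quantile normalization, equal medians, array weights, medians over members and leaving out any member kept the class II difference between -1.04 and -0.80. With the probe set of Ciita and EG669998, also added after seeing the data, it was -0.70 and the class II minus class I difference -0.67. Leaving out each array in turn gave -1.08 to -0.715 for the class II set, -0.13 to 0.03 for the class I set and -0.98 to -0.72 for class II minus class I. The median difference over genes was then -0.285 to -0.09 for the other class II genes and -0.25 to 0.01 for the other class I genes. Limma called 0 probe sets under each of the 13 alternatives to its fit, with 233 to 1797 at an unadjusted p under 0.05, the highest without DeltaHepKlf6 2.

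Differences near zero changed sign in places: Tapbp was 0.029 with quantile normalization. Leaving out each array gave -0.36 to 0.013 for Tap1, above zero without Control 1, and -0.14 to 0.27 for Psmb8, below zero without DeltaHepKlf6 1, DeltaHepKlf6 2 or Control 3. Over all probe sets the group-centred values of same-numbered mice correlated at -0.13, -0.17 and 0.21 for numbers 1, 2 and 3, so the numbers were not taken as pairs, although the number 2 mice were the highest of both groups in the class II genes. The SE of H2-Ab1 was 0.14 with the replicate block and 0.34 without it. The replicate block left the set differences at -0.88, -0.04 and -0.85 by construction and called 0 probe sets, with 884 at an unadjusted p under 0.05 against 750 without it. No alternative without Ciita was made, since it had no single-gene probe set. Each member had 1 such set, so averaging all sets of a gene changed nothing.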
